A study of Mus musculus with 6 samples.

Results

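The genes described here are 10 markers of the pericentral liver zone and targets of Wnt signalling outside the Cyp family: Glul, Oat, Slc1a2, Rhbg, Lgr5, Axin2, Tbx3, Lect2, Rgn and Rnf43. They were chosen by name, and all 10 were found among the 55487 genes of the count table and passed the filter on low counts that left 14046 genes for testing. Their mRNA was measured by RNA-seq in livers of wild-type mice on a normal chow diet, collected at 17 weeks of age. The 3 control mice had received GalNAc-siNC, a control siRNA, and the 3 treated mice GalNAc-siRnf10, an siRNA against Rnf10, both by subcutaneous injection at time points that the labels do not state. The study used male C57BL/6J mice, and the labels place all 6 libraries in batch 1. GalNAc is a sugar that the asialoglycoprotein receptor of hepatocytes takes up, so these siRNAs are directed to hepatocytes, whereas whole liver was sequenced and the other liver cells contribute to every value.

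Blood enters a liver lobule at the portal tract and leaves at the central vein, and hepatocytes differ in their tasks along this path. Endothelial cells around the central vein release Wnt ligands and R-spondins. Wnt binds a Frizzled receptor together with Lrp5 or Lrp6, beta-catenin is then spared from degradation, and with TCF/LEF factors it drives the pericentral genes. R-spondin, bound by Lgr receptors, protects the Frizzled proteins from removal by the ubiquitin ligases Rnf43 and Znrf3. Among the 10 genes, Glul, Oat, Slc1a2 and Rhbg serve the capture of ammonium and glutamate near the central vein. Axin2, Lgr5, Rnf43 and Tbx3 are common reporters of the pathway, Lect2 encodes a secreted hepatocyte protein, and Rgn encodes regucalcin.

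After GalNAc-siRnf10, 4 of the 10 genes rose, which were Oat, Slc1a2, Lect2 and Rgn, and 1 fell, Axin2. Their fold changes were between 1.19 and 1.38 for the genes that rose, and 0.735 for Axin2. Glul, the gene most often used to mark the pericentral zone, did not pass the test, nor did Rhbg, Lgr5, Tbx3 and Rnf43. A call here is an adjusted p under 0.05 in edgeR's quasi-likelihood test, corrected over all tested genes by the method of Benjamini and Hochberg. By that rule 14.0% of all tested genes were called, 6.71% as higher and 7.28% as lower. The median log2 fold change of the 10 genes was 0.15, beside 0.0022 over all tested genes. Of the genes with a mean of at least 100 CPM (read counts scaled to library size), 21.1% were called higher and 15.7% lower, and 4 of the 10 genes are that abundant, of which Oat, Slc1a2 and Rgn rose and Glul was not called. The calls of Lect2, Rgn and Axin2 changed with the processing, as given below for each, whereas those of Oat and Slc1a2 held under all 17 alternatives. The 3 mice of one group are separate animals. The edgeR p-values set each difference against the spread between animals, estimated with information shared over all tested genes.

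Because several of the genes are described as direct targets of beta-catenin with TCF/LEF, their promoters were searched for the TCF/LEF core CTTTGA and for the longer form CTTTGAT on both strands, so that each match to the longer form is also a match to the core. The sequences are from RefSeq on the build GRCm38.p6 and run from 250 bases before to 50 bases after an annotated transcription start. RefSeq entries were matched for 6 of the 10 genes, Glul, Oat, Slc1a2, Axin2, Lect2 and Rnf43, with 7 promoters in all. The core was present in the promoters of Slc1a2 and Lect2, both of which rose, and was not found in these windows of Glul, Oat, Axin2 and Rnf43. Over all 32851 promoters of this length, 16.0% held the core and 3.73% the longer form. The promoters of Slc1a2 and Lect2 are shown because they hold the letters, and that of Axin2 because it belongs to the gene that fell. Capitals mark the matches, and a match is a run of letters and not a measured binding site.
Slc1a2 promoter, chr2:102706188-102706487, plus strand: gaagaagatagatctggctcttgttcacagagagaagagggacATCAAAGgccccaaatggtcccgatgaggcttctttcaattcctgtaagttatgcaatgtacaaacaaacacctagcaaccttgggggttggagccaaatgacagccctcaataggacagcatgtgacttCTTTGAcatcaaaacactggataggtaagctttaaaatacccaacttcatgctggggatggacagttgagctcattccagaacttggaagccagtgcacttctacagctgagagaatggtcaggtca
Lect2 promoter, chr13:56548489-56548788, minus strand: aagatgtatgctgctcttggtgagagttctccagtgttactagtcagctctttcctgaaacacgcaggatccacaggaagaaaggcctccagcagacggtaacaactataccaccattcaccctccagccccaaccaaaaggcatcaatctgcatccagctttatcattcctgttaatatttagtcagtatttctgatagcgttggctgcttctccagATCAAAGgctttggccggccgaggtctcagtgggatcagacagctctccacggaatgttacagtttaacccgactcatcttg
Axin2 promoter, chr11:108920099-108920398, plus strand: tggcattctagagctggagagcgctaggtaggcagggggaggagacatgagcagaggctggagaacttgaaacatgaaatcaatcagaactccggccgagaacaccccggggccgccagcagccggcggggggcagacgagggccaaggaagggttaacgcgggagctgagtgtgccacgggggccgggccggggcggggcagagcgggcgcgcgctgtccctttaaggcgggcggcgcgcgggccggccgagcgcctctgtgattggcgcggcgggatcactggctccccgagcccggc
In Slc1a2 a match to the longer form on the opposite strand lay at bases 207 to 201 before the start, and a match to the core on the gene's own strand at bases 77 to 72 before it. This start lies inside the span of the Slc1a2 gene model of the count table, which begins at base 102658659. In Lect2 a match to the longer form on the opposite strand lay at bases 32 to 26 before the start.

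Total counts per library were between 26854377 and 33058645, and a count of 3 corresponds to at most 1.12e-05% of a library, so that each of the 10 genes was well above the level at which it would be missed. Rnf10, the siRNA target, was at 130, 153 and 136 CPM in the control mice and at 58.6, 61.4 and 60.4 CPM in the treated mice, a log2 fold change of -1.22 ± 0.07 (SE, n = 3 per group, edgeR adjusted p = 3.29e-09). Of the 1965 called genes, 943 were higher and 1022 lower. When libraries were scaled by their total count only, 747 genes were higher and 1381 lower. All CPM values in the text are scaled by the TMM factors, and levels of different genes are compared as RPKM, which divides the CPM by the gene model length in kilobases.

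The levels of the 10 genes in the control mice spanned 542 RPKM for Rgn to 0.614 RPKM for Lgr5. The order was Rgn, Oat at 295 RPKM, Glul at 268 RPKM, Lect2 at 85.4 RPKM, Slc1a2 at 10.3 RPKM, Tbx3 at 4.80 RPKM, Rnf43 at 4.33 RPKM, Axin2 at 1.29 RPKM, Rhbg at 0.918 RPKM and Lgr5. In the control mice the neighbours Tbx3 and Rnf43 overlapped from mouse to mouse, as did Rhbg and Lgr5, and no other neighbours did. Rgn, Oat, Glul and Lect2 stood above 96% of the tested genes by this measure, and Axin2, Rhbg and Lgr5 in the lower 40%. In the treated mice the order was the same except that Rhbg, at 1.08 RPKM, stood above Axin2, at 0.950 RPKM. Slc1a2, Tbx3 and Rnf43 stood between these.

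**Figure D1:**
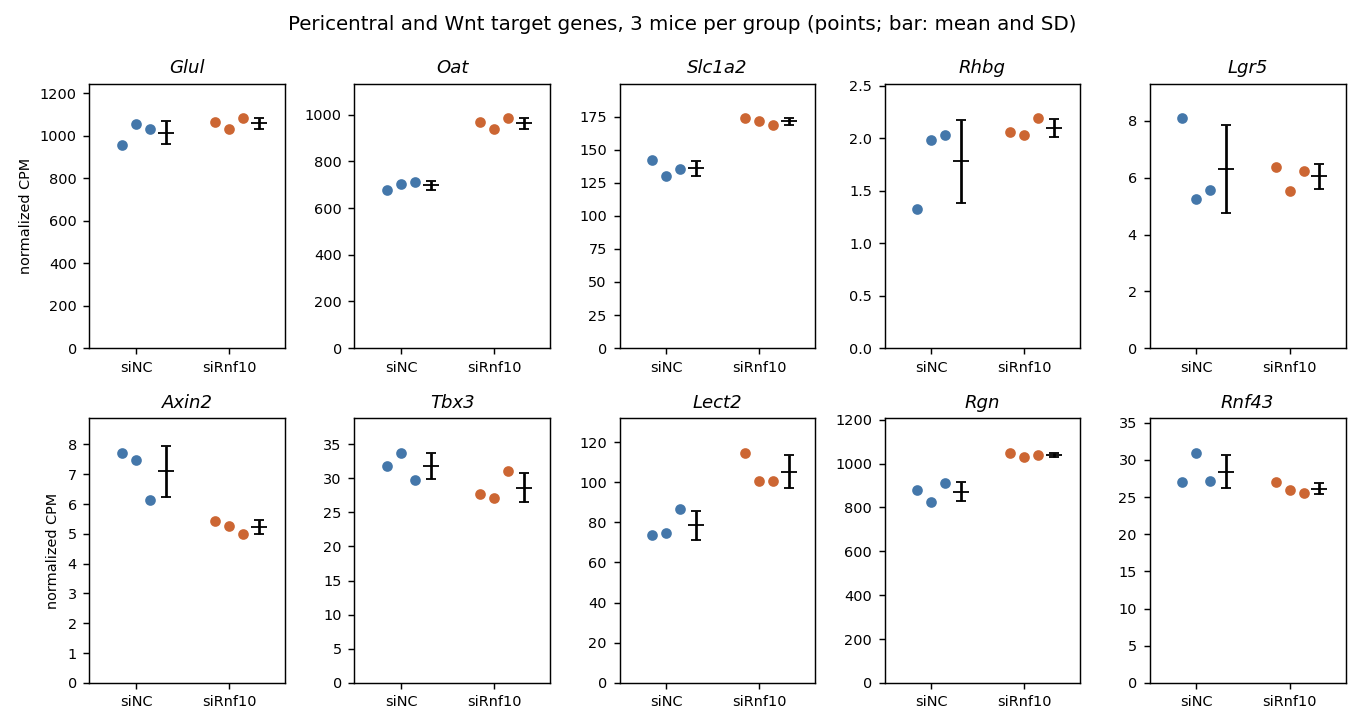
Normalized CPM (vertical axis, from 0, one scale per gene) of the 10 genes in the 3 GalNAc-siNC mice (blue) and the 3 GalNAc-siRnf10 mice (orange), with mean and SD beside the points. The groups are apart for Oat, Slc1a2, Lect2, Rgn and Axin2, touch for Rnf43, and overlap for Glul, Rhbg, Lgr5 and Tbx3.

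Of the 4 genes of glutamate and ammonium handling, Oat and Slc1a2 rose and Glul and Rhbg were not called. Glul, which encodes glutamine synthetase, the enzyme that joins ammonium to glutamate in the last rows of hepatocytes before the central vein, lies on chromosome 1 (GRCm38, 153899944 to 153909723). It was at 954, 1057 and 1033 CPM in the control mice and at 1064, 1032 and 1083 CPM in the treated mice. The treated values lay at the upper end of the control range or just above it, and the groups overlapped. The log2 fold change was 0.06 with a 95% interval from -0.052 to 0.176 (edgeR adjusted p = 0.509, exact permutation p = 0.3). Over the 17 alternatives the value was between 0.016 and 0.090, and none made a call.

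Oat encodes ornithine aminotransferase, a mitochondrial enzyme that turns ornithine into a precursor of glutamate in the same hepatocytes as glutamine synthetase. The gene lies on chromosome 7 (132557478 to 132576398). Its level was 677, 704 and 711 CPM in the control mice and 967, 938 and 986 CPM in the treated mice. Every treated mouse was above every control mouse, and the distance between the groups was many times the spread within them (SD 17.7 and 24.1 CPM). This gave a log2 fold change of 0.47 ± 0.05 (SE, n = 3 per group, edgeR adjusted p = 6.03e-06), a 1.38-fold difference. The exact permutation p was 0.1, the smallest that 3 mice against 3 allow. Its value under the alternatives was between 0.38 and 0.49.

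Slc1a2 encodes GLT-1, a glutamate transporter of the cell surface which in liver is found on pericentral hepatocytes. On chromosome 2 (102658659 to 102790784), it was at 142, 130 and 135 CPM in the control mice and at 174, 172 and 169 CPM in the treated mice. All treated mice were above all control mice, with an SD of 2.65 CPM among them. The fitted log2 fold change was 0.33 ± 0.06 (SE, n = 3 per group, edgeR adjusted p = 0.000996). Under the alternatives it was between 0.29 and 0.37 and was called in each. An antisense gene, Gm13872, shares 189 bases with the exons of Slc1a2 and had 8 counts over all 6 mice, beside 27232 for Slc1a2.

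Rhbg encodes an ammonium transporter of the Rh family on the surface of pericentral hepatocytes, on chromosome 3 (88242874 to 88254709). It had between 45 and 63 counts per mouse, the fewest of the 10 genes. The control mice had 1.32, 1.98 and 2.03 CPM and the treated mice 2.06, 2.03 and 2.19 CPM. Control mouse 1 was low and the other 5 mice were within a narrow range. Rhbg had a log2 fold change of 0.24, with a 95% interval from -0.255 to 0.737 (edgeR adjusted p = 0.564), and without control mouse 1 it was 0.058, so that the depth does not resolve a change of the size seen for Oat. Gm38392 shares 1190 bases, or 61.4% of the Rhbg model, on the same strand and was given 0 counts, and how reads in the shared bases were assigned is not stated, which makes the level of Rhbg uncertain.

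Set beside each other, Oat and Slc1a2 rose while the interval of Glul ended below the values of both. The lower end of the interval was 0.359 for Oat and 0.208 for Slc1a2, and the upper end for Glul was 0.176. The difference between genes was not tested itself. In control mouse 1 Glul was the lowest of all 6 mice, as was Rhbg, and in the same mouse Axin2 and Lgr5 were the highest of all 6. Over the 6 mice Pearson's r with Glul on log2(CPM + 0.5) was 0.949 for Rhbg and -0.678 for Lgr5, and the points share 2 treatment groups and 1 set of libraries. The genes whose pattern was most like that of Glul among 14045 genes by this r were Rexo4 (0.990), Rdh9 (0.990) and Gm44423 (0.989). In all 3 of them control mouse 1 was the lowest, as in Glul, and 259 genes had an r of at least 0.9 over these 6 mice.

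Of the 4 reporters of Wnt signalling among the 10 genes, Axin2, Lgr5, Rnf43 and Tbx3, none rose. Axin2 encodes a scaffold of the complex that degrades beta-catenin and is itself switched on by the pathway as a brake. It lies on chromosome 11 (108920349 to 108950783) and had between 139 and 263 counts per mouse. The control mice had 7.72, 7.47 and 6.13 CPM and the treated mice 5.45, 5.25 and 4.99 CPM. The groups did not overlap, and control mouse 3 was the nearest to the treated mice. The log2 fold change was -0.44 ± 0.14 (SE, n = 3 per group, edgeR adjusted p = 0.0447, exact permutation p = 0.1). The call was close to the threshold and was kept in 6 of 17 alternatives. With DESeq2 the adjusted p was 0.0598. Without any one of the mice other than control mouse 3 the call was lost, with adjusted p between 0.0823 and 0.159. The sign was negative under all 17, with values between -0.54 and -0.34.

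Lgr5, a receptor for R-spondins and a target of the pathway in pericentral hepatocytes, lies on chromosome 10 (115450311 to 115587780). It was at 8.10, 5.25 and 5.56 CPM in the control mice and at 6.36, 5.54 and 6.25 CPM in the treated mice. Control mouse 1 was above all other mice, and the treated mice overlapped with control mice 2 and 3 or lay just above them. For Lgr5 the log2 fold change was -0.07, with a 95% interval from -0.417 to 0.283 (edgeR adjusted p = 0.841), and it was 0.16 without control mouse 1, so no direction can be given.

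Rnf43 encodes the ubiquitin ligase that removes Frizzled receptors from the cell surface, and it is itself raised by Wnt signalling. On chromosome 11 (87662722 to 87735539), it was at 27.0, 30.9 and 27.2 CPM in the control mice and at 27.0, 25.9 and 25.5 CPM in the treated mice. The highest treated mouse and the lowest control mouse differed by less than 0.1 CPM. Rnf43 had a log2 fold change of -0.12, with a 95% interval from -0.300 to 0.060 (edgeR adjusted p = 0.402).

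Tbx3 encodes a T-box transcription factor that marks pericentral hepatocytes and answers to Wnt. Its gene lies on chromosome 5 (119670669 to 119684724). The control mice had 31.8, 33.7 and 29.8 CPM and the treated mice 27.7, 27.1 and 31.1 CPM. The treated mice 1 and 2 were below all control mice, and treated mouse 3 was within their range. The log2 fold change was -0.15 with a 95% interval from -0.334 to 0.028 (edgeR adjusted p = 0.272). Tbx3os1, an antisense gene with 1481 counts over the 6 mice, shares 115 bases of exon with Tbx3, which had 5381 counts. The strand setting of the counting is not given in the sources used here, so reads from these shared bases could have been given to either gene.

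All 4 Wnt reporters had a log2 fold change below 0, except that Lgr5 was above 0 without control mouse 1 and with voom and Rnf43 after correction for GC content and length, and only Axin2 among them was called. The lower ends of the intervals leave room for a fall of up to 0.334 on the log2 scale in Tbx3, 0.300 in Rnf43 and 0.417 in Lgr5. The interval of Axin2, from -0.740 to -0.147, overlaps those of the other three.

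Lect2 encodes leukocyte cell-derived chemotaxin-2, a protein that hepatocytes secrete into blood and whose gene is a known target of beta-catenin. It lies on chromosome 13 (56542464 to 56548502). The control mice had 73.8, 74.8 and 86.8 CPM and the treated mice 115, 100 and 101 CPM. Every treated mouse was above every control mouse, with treated mouse 1 the highest. Lect2 had a log2 fold change of 0.42 ± 0.08 (SE, n = 3 per group, edgeR adjusted p = 0.00126), a 1.34-fold difference. Its gene model, of 919 bases, is the shortest of the 10.

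Regucalcin, the product of Rgn, is a calcium-binding lactonase that in mice is part of the pathway of ascorbate synthesis. The gene lies on chromosome X (20549787 to 20562089). It was at 879, 824 and 912 CPM in the control mice and at 1049, 1032 and 1041 CPM in the treated mice. The groups were apart, and the treated mice differed from each other by less than any pair of control mice did. The log2 fold change was 0.26 ± 0.05 (SE, n = 3 per group, edgeR adjusted p = 0.00311), a 1.19-fold difference, the smallest of those called. Its gene model has 1607 bases.

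The differences of Lect2 and Rgn moved with gene length. Among tested genes with a mean of at least 10 CPM, the 186 with models under 1000 bases had a median log2 fold change of 0.33, and the 716 with models from 1000 to 2000 bases had a median of 0.15. The 1506 genes with models of 8000 bases or more had a median of -0.030. With a smooth correction for model length alone, chosen after seeing the data, Lect2 was at 0.20 (edgeR adjusted p = 0.0887) and Rgn at 0.13 (edgeR adjusted p = 0.237). With the correction for GC content and length together they were at 0.16 (edgeR adjusted p = 0.0662) and 0.037 (edgeR adjusted p = 0.626). Oat, with a model of 2360 bases, was at 0.38 and Slc1a2, with 13133 bases, at 0.36 under the same correction, and both kept their calls. Axin2 was at -0.34 and was no longer called (edgeR adjusted p = 0.0863), and Rnf43 turned from -0.12 to 0.015. The correction removes whatever genes of one length share, and what sets the shift with length in these libraries was not tested.

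**Figure D2:**
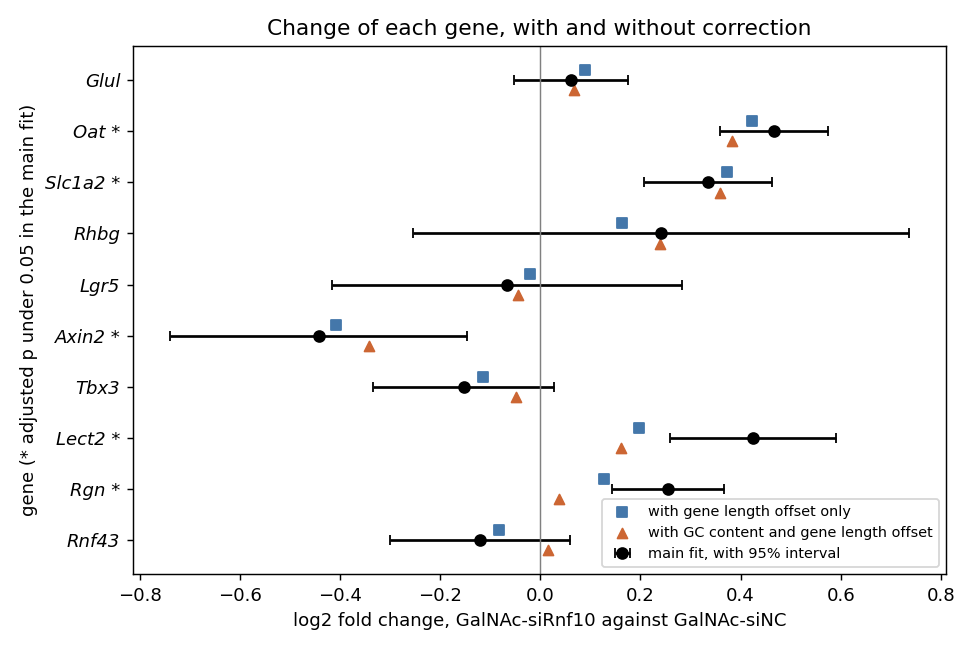
Log2 fold change of GalNAc-siRnf10 against GalNAc-siNC (horizontal axis) for each of the 10 genes, with the 95% interval of the main fit (black) and the values after correction for gene length (squares) and for GC content and gene length (triangles). With length alone corrected, Lect2 and Rgn move to 0.20 and 0.13 and Glul is at 0.089, and with GC content and length corrected, Lect2 and Rgn move to 0.16 and 0.037, Glul is at 0.068, and Oat and Slc1a2 are at 0.38 and 0.36.

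The 10 genes also differed in base composition. The 4 that rose had 41.7% to 47.9% GC in their longest transcript, below the median of 49.3% over all tested genes. Axin2, Tbx3 and Rnf43 had 54.6%, 54.2% and 56.1% GC. Lgr5, at 44.7% GC, and Rhbg, at 56.9% GC, broke this order, and neither was called. With GC content alone corrected, also chosen after seeing the data, Oat, Slc1a2, Lect2 and Rgn kept their calls and Axin2, at -0.40, did not (edgeR adjusted p = 0.0540).

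The groups did not overlap in 6 of the 10 genes, which were the 5 called ones and Rnf43, and in 32.8% of all tested genes. In whole liver, fewer cells of a type and less RNA per cell cannot be told apart, and this holds for each value given here. Summed over the 10 genes, the control mice had between 2802 and 2949 CPM and the treated mice between 3339 and 3449 CPM, a sum made up mostly of Glul, Oat and Rgn. The summed level of the hepatocyte markers was 48980 to 51870 CPM in the control mice and 73550 to 76210 CPM in the treated mice, and most of it was Alb, with a mean of 39070 CPM in the control mice and 60860 CPM in the treated mice. Of 7 tested markers 3 were called higher, Alb (log2 fold change 0.64), Ttr (0.66) and Serpina1c (0.44), and none lower, and the calls of Ttr and Serpina1c were lost in 2 and 4 of 17 alternatives. The other 4, Apoa1, Asgr1, Asgr2 and Hnf4a, were between -0.122 and 0.113 and were not called. The part of hepatocyte RNA in the changes of the 10 genes was not tested.

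Of the remaining pericentral hepatocyte genes, a list of 15, 9 rose and none fell, with a median log2 fold change of 0.28. Avpr1a (-0.26), a vasopressin receptor, was not called. Of this list 1 gene was called lower under total count scaling and with voom. The same count held under each of the 3 corrections for GC content, length or both, and without control mouse 1. Gstm1, a glutathione transferase and the most abundant gene of the list by RPKM, rose from 548, 562 and 530 CPM to 1117, 1103 and 1029 CPM (log2 fold change 0.99, edgeR adjusted p = 1.51e-09). Gsta3 (0.79) and Gstm3 (0.74), which are further glutathione transferases, and the aldehyde dehydrogenase Aldh3a2 (0.42) rose too. All 10 listed pericentral cytochrome P450 genes rose, with a median of 0.50, from 0.21 for Cyp27a1 to 1.40 for Cyp2a5. After the correction for length alone 8 of them were called, and after that for GC content and length together all 10 were. The largest after Cyp2a5 were Cyp3a11 (1.19) and Cyp7a1 (1.02), the rate-limiting enzyme of bile acid synthesis, followed by Cyp2c54 (0.62) and Cyp2c50 (0.58). Cyp2e1, the most abundant, rose as well (0.29). Against these, Oat with 0.47 was in the middle of the range and Glul with 0.06 was below all 10 P450 genes.

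On the periportal side, of 21 periportal hepatocyte genes 12 rose and 2 fell, Ctsc (-0.61) and Cdh1 (-0.37), with a median of 0.38. Hsd17b6 (1.33), the urea cycle enzymes Ass1 (0.84) and Cps1 (0.58), and G6pc (0.59), the last step of glucose release, had the smallest adjusted p, and Pck1 (0.48), of gluconeogenesis, was the most abundant. Of the genes that handle glutamate, glutamine, ornithine and ammonium around Glul and Oat, 8 of 14 tested rose and none fell (median 0.25). The aspartate aminotransferase Got1 (1.22), the glutamine transporter Slc38a2 (0.97), the cationic amino acid transporter Slc7a2 (0.70) and Slc25a15 (0.43), the mitochondrial ornithine carrier that brings Oat its substrate, led that list.

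**Figure D3:**
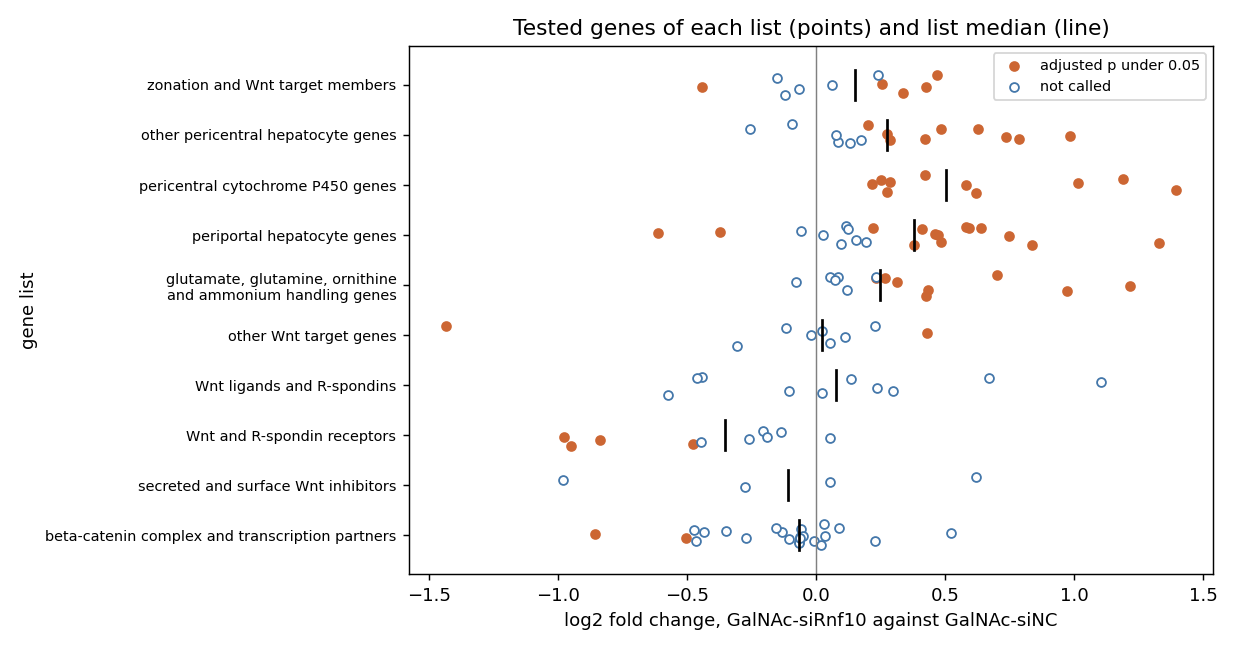
Log2 fold change of GalNAc-siRnf10 against GalNAc-siNC (horizontal axis) of every tested gene of each list (vertical axis), filled where the adjusted p is under 0.05, with a line at each list's median. The medians of the other pericentral, P450, periportal and glutamate handling lists lie between 0.25 and 0.50, that of the 10 genes at 0.15, that of the other Wnt targets at 0.023 and that of the receptors at -0.35.

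Of the remaining Wnt target genes, 1 of 9 tested rose and 1 fell, with a median of 0.023. Notum, a secreted enzyme that removes the lipid from Wnt and a target that limits the pathway like Axin2 and Rnf43, rose from 15.2, 16.8 and 17.7 CPM to 21.9, 23.2 and 21.8 CPM (log2 fold change 0.43, edgeR adjusted p = 0.00480). Its sign was thus opposite to that of Axin2. Antisense Notumos shares 708 bases, or 29.4%, of its model and had 313 counts over the 6 mice beside 3434 for Notum. Myc, a growth regulator that many other signals also control, fell by 1.44 on the log2 scale (edgeR adjusted p = 1.45e-08). Znrf3, the partner ligase of Rnf43, was at -0.12 and was not called, the same value as Rnf43.

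On the receptor side, 4 of 10 tested Wnt and R-spondin receptor genes fell and none rose, with a median of -0.35. Fzd7, a Frizzled receptor, was at 30.5, 32.2 and 31.5 CPM in the control mice and at 18.0, 13.6 and 17.2 CPM in the treated mice (log2 fold change -0.95, edgeR adjusted p = 4.91e-06). Fzd8 fell from 35.2 ± 4.13 to 19.6 ± 1.72 CPM (SD, n = 3 per group, log2 fold change -0.84, edgeR adjusted p = 1.53e-05). Fzd6 fell by 0.98 and the coreceptor Lrp5 by 0.48 on the log2 scale, and all 4 calls held under the 17 alternatives. Lgr4, the R-spondin receptor that hepatocytes express together with Lgr5, was at -0.19 and was not called. The sign of these receptors was that of Axin2 and opposite to that of Oat, Slc1a2, Lect2 and Rgn.

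**Figure D4:**
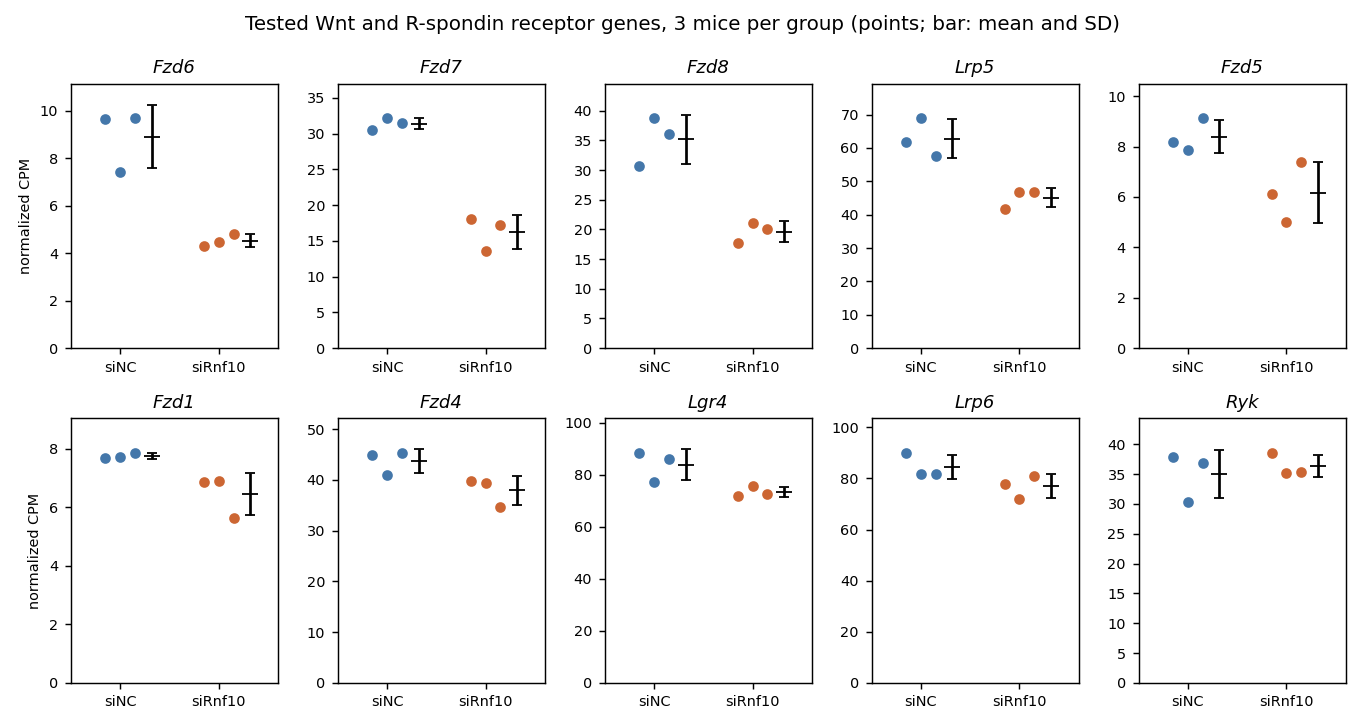
Normalized CPM (vertical axis, from 0, one scale per gene) of the 10 tested Wnt and R-spondin receptor genes in the 3 GalNAc-siNC mice (blue) and the 3 GalNAc-siRnf10 mice (orange), ordered by log2 fold change, with mean and SD beside the points. The treated mice lie far below the control mice in Fzd6, Fzd7, Fzd8 and Lrp5. The groups are apart in 9 of the 10 genes, beside 32.8% of all tested genes, and only Ryk, at 0.054, overlaps.

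Of 13 Wnt ligand, R-spondin and secretion genes, 10 were tested and none was called. Wnt2, Wnt9b and Rspo3, which endothelial cells of the central vein express, were at or below 1.88 CPM in each mouse, a depth at which only large changes could be seen. Of 14 secreted and surface inhibitors 4 were tested and none was called, and the 10 others had at most 18 counts in any mouse. In the beta-catenin complex and its transcription partners 2 of 23 fell and none rose, with a median of -0.068. Bcl9, a coactivator of beta-catenin, fell by 0.86, and Dvl2, which relays the Frizzled signal, by 0.50 on the log2 scale, and the call of Dvl2 was lost in 6 of 17 alternatives. Dvl2 shares 18.3% of its model with Acadvl on the opposite strand, which had 32854 counts beside 877. Ctnnb1, which encodes beta-catenin, was at -0.060 and was not called.

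Markers of the other liver cells were measured for comparison. Endothelial markers summed to 70.7 to 71.7 CPM in the control mice and 72.7 to 78.0 CPM in the treated mice, with Clec4g and Lyve1 of 8 called higher, and the call of Lyve1 was lost in 9 of 17 alternatives. Stab2 (-0.257), the most abundant of them by CPM, and Cdh5 (-0.247) were below 0 and not called, and the other 6 were above 0. Kupffer cell markers summed to 213 to 260 and 237 to 251 CPM with none of 8 called. Stellate cell and fibroblast markers summed to 103 to 108 and 119 to 120 CPM, with Dcn and Reln of 8 called higher, and that of Reln was lost in 2 of 17 alternatives. Dcn was the most abundant of them by CPM, with a mean of 49.1 CPM in the control mice and 62.9 CPM in the treated mice. The list went both ways, with 5 of the 8 below 0 and not called, and a median log2 fold change of -0.150. Cholangiocyte markers summed to 68.7 to 70.1 CPM in the control mice and to 37.8 to 38.9 CPM in the treated mice, of which Spp1 made up most and was the only one of 5 tested to be called (log2 fold change -0.90). All 5 were below 0, with a median log2 fold change of -0.264. Lymphocyte markers summed to at most 1.84 CPM in any mouse, and neither of the 2 tested was called. The part of these cells in the values of the 10 genes was not tested.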

How the data were processed

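RNA-seq was done on liver of 6 mice. The authors prepared stranded mRNA libraries, mapped paired-end reads to GRCm38 (mm10) with HISAT2 and deposited, for each gene, raw counts and the length of its model. The counting tool, the annotation release and the strand setting are not given in the sources used here. The deposited counts were used as they were, with no rounding. Symbols were matched to the deposited gene identifiers, and 346 of 55487 identifiers had none. GC content is that of the longest transcript of each gene in GENCODE M21. The hepatocyte marker Tf, as listed, matched no symbol of the count table. The hepatocyte marker values therefore cover 7 of the 8 listed genes.

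Genes were kept by filterByExpr (minimum count 10), scaled by TMM and tested with edgeR 4.0.16 in R 4.3.3 (estimateDisp, robust glmQLFit, glmQLFTest, treatment as the only term), with Benjamini-Hochberg adjustment over all tested genes and a threshold of 0.05. Intervals are 95% intervals of the fitted log2 fold change. Exact permutation tests were two-sided and compared means of CPM. RPKM was computed from TMM-scaled CPM and the deposited length. Intervals and floors cover the spread of these mice or counting error only.

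The 10 genes, the lists and the tests were chosen with earlier results of these data known. Named genes are Rnf10, the 10 genes, in each list up to 4 called genes of smallest adjusted p, the most abundant gene of the pericentral and periportal lists, and the 3 genes most like Glul. Other genes in the text, among them Cyp27a1, Cyp2c54, Avpr1a, Ctsc, Cdh1, Znrf3, Lgr4, Ctnnb1, Ryk, Wnt2, Wnt9b, Rspo3, Apoa1, Asgr1, Asgr2, Hnf4a, Stab2 and Cdh5, were named after their values were seen.

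Alternatives were RLE, upper quartile and total count scaling, no filter or a stricter one (10 or more counts in each of the 6 mice), the replicate number as a block, limma 3.58.1 voom with sample quality weights, DESeq2 1.42.0, an offset for GC content and gene length (splines with 5 degrees of freedom), and leaving out each mouse. Offsets for GC content alone and length alone were added after seeing the data. The fits were tested on simulated counts. Python 3.11.15, scipy 1.17.1 and matplotlib 3.10.9 were used otherwise.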

Additional observations from a re-analysis of the deposited data

How the results depend on the processing

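Under the 17 alternatives, Glul, Oat, Slc1a2, Rhbg and Tbx3 kept their direction and their side of the threshold. Axin2 lost its call with DESeq2 (-0.44), voom (-0.38), the offsets for GC content and length (-0.34), GC content alone (-0.40) and length alone (-0.41), and without single mice it was between -0.54 and -0.38, called only without control mouse 3. Lect2 and Rgn lost theirs with the offset for length alone (0.20 and 0.13) and with GC content and length (0.16 and 0.037), and these offsets left 2 of the 10 genes called. Lgr5 turned to 0.042 with voom and was between -0.18 and 0.16 without single mice, and Rnf43 turned to 0.015 with GC content and length. The number of all called genes was between 1053 and 2864 without single mice, beside 1965 with all mice. It was highest without control mouse 1 (2864) and lowest without a treated mouse (1053, 1128 and 1128). What part fewer mice or the offsets themselves had in these changes was not tested.

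The mice carry the same numbers in both groups, but they are different animals, and deviations of same-numbered mice correlated at -0.001, 0.027 and -0.034. With the replicate block 1816 genes were called, and 4 of the 10 genes, Axin2 being lost (-0.44, adjusted p = 0.0523, edgeR). Among the other named genes, Dvl2, Lyve1, Reln, Serpina1c and Ttr lost their calls in 23 fits in all, most of them without single mice. With total count scaling or GC content alone corrected, 7 receptor genes were lower in place of 4. Rhbg, Lgr5 and Axin2, with under 300 counts per mouse, are limited by depth.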
